A study of Mus musculus with 26 samples.

Results

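The genes described here build and drive motile cilia. All genes whose mouse symbol begins with Dnah, Cfap or Rsph and a number were taken, together with Foxj1, Ccdc153, Tppp3, Tmem212, Dynlrb2, Ccdc39 and Ccdc40, which gave 62 of the 55416 genes in the deposited count table. The prefix Dnai matched no gene, because the symbol table used here lists the dynein intermediate chains under older symbols. Those 5 genes (Dnaic1, Dnaic2, Wdr63, Wdr78 and Casc1) are given separately and are not counted among the 62.

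RNA was sequenced from C57BL/6 mice that carried lung metastases after B16F10 melanoma cells, a mouse melanoma line, had been injected into a vein. Propranolol, a blocker of beta-adrenergic receptors, was compared with no treatment in whole lung (5 libraries against 5), in lung monocytes isolated by flow cytometry (4 against 4) and in CD4 T cells isolated with magnetic beads (4 against 4). All groups, the untreated ones included, came from metastasis-bearing mice, and the sources used here give no propranolol dose, duration or tumour-free group. Whether each library is a mouse of its own is not stated, so a p-value here measures library-to-library spread, which may be technical.

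A motile cilium is a whip built on a ring of microtubule doublets around a central pair, and in the lung it is carried by the multiciliated cells of the airways, where it moves mucus. Outer and inner dynein arms slide the doublets, radial spokes and the central apparatus coordinate the beat, and inner proteins and ruler proteins hold the doublets together and space the arms. FOXJ1, together with RFX factors, is the transcription factor that switches on this gene set, and loss of DNAH5, an outer arm motor, is a known origin of primary ciliary dyskinesia.

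RFX factors bind X-boxes, whose core is often written GTTGCCATG or GTTGCTATG, so the few member promoters that hold these letters are shown. RefSeq promoter windows of build GRCm38.p6 (the 250 bases before each start site, both strands searched) were matched for 48 of the 62 genes, in 52 windows. GTTGCCATG stood in 3 of the 52 windows (5.77%) and in 0.642% of all 32851 windows, and GTTGCTATG in 2 (3.85%) and in 0.444%. Either 9-letter form stood in 5 windows (9.62%) against 1.08% of all. The stretches below are written on the gene's strand, 5′ to 3′, with the X-box letters in capitals, which reads CATGGCAAC where it lies on the other strand.
Cfap161 (chr7:83794853-83794901, minus strand): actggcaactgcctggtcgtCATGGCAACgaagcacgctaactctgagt
Cfap44 (chr16:44394752-44394798, plus strand): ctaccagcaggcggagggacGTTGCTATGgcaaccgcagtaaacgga
Cfap45 (chr1:172521091-172521129, plus strand): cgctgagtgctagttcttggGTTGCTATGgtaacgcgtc
Cfap74 (chr4:155409183-155409231, plus strand): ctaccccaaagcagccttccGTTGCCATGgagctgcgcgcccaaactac
Cfap97d2 (chr8:13705847-13705888, plus strand): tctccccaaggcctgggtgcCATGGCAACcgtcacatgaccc

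The shorter core GTTGCC, part of the first form and not of the second, stood in 16 of the 52 windows (30.8%) against 10.4% of all windows. A fuller palindromic X-box with both arms, which the shorter forms can overlap, was searched in 1 exact pattern only. This pattern was found in 1 member window, that of Cfap298 (1.92%, against 0.374% of all). It does not admit the second form as an arm. The stretches of Cfap44 and Cfap45 above, which hold the second form followed by an opposite arm, were therefore not counted. How many windows hold both arms in any form was not tested. GTAAACA, a forkhead motif of the kind FOXJ1 can bind, was found in 3 (5.77%, against 3.17%), those of Cfap20, Cfap43 and Dnah17. These matches are letters in a window and not measured binding, and windows of genes with several starts share sequence.

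In untreated whole lung the set was led by Tppp3, a tubulin polymerisation-promoting protein, at 71.97 CPM per kb (its counts divided by library depth and by the exon length of GENCODE M21). Cfap36 followed at 17.65, Foxj1 at 16.14, Cfap20 at 10.5 and Dynlrb2, a dynein light chain, at 10.22 CPM per kb. The long heavy chains were lower, with Dnah5 at 1.304 and Dnah14 at 0.0226 CPM per kb, and Rsph6a was lowest at 0.00418. Both labelled markers of the ciliated cell were present in every lung library, since Foxj1 ranged from 28.3 to 60.5 and Dnah5 from 9.94 to 30.5 CPM in untreated lung. CPM values for single genes are scaled by TMM, a library scaling that assumes most genes keep their level, unless they are called plain.

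**Figure D1:**
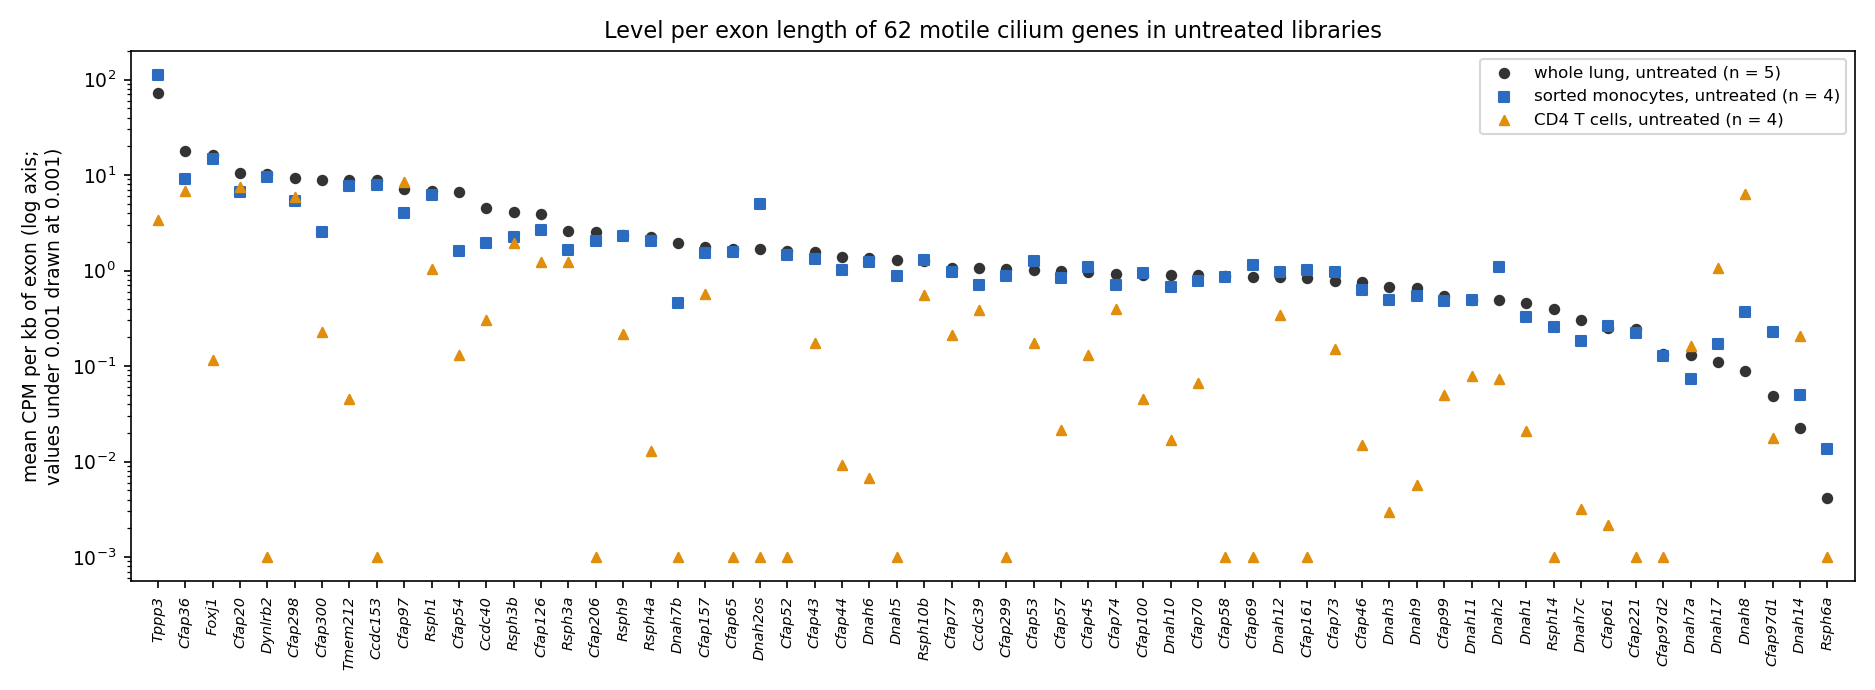
Mean plain CPM per kb of exon (log axis, values under 0.001 drawn at 0.001) of the 62 genes in untreated whole lung, monocyte and CD4 T cell libraries, ordered by the lung level. Lung and monocyte points lie close for most genes, from Tppp3 at 71.97 in lung to Rsph6a at 0.00418, while most CD4 T cell points lie far lower, except Dnah8, Dnah17, Dnah14 and a few broadly expressed Cfap genes.

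Propranolol-treated lungs had more RNA of most motile cilium genes, relative to all genes. Of the 60 members with enough counts to test, 48 (80.0%) were called higher at an adjusted p under 0.05, beside 35.5% of all 18639 genes tested, and 8 (13.3%) lower, beside 35.3%. The median log2 change was 0.99 over the members and 0.03 over all genes tested. All treated libraries lay above all untreated ones for 19 members (31.7%, beside 23.6% of all genes) and below them for 5 (8.33%, beside 29%). In whole tissue, more ciliated cells, more RNA per ciliated cell and a smaller share of melanoma RNA cannot be told apart. Scaled on resident lung cell markers (below), the members' median was 0.27. Cfap97d1 and Rsph6a, both near 0 in lung, were not tested.

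All 5 outer dynein arm heavy chains rose. Dnah5 stood at 15.5, 9.94, 26.8, 30.5 and 25.3 CPM in untreated libraries 1 to 5 and at 19.3, 57.9, 59.9, 52.8 and 33.2 CPM in treated libraries 1 to 5. The groups overlapped, because treated library 1 lay below 3 untreated libraries. Its log2 change was 1.04 ± 0.35 (SE, adjusted p = 0.0192). Dnah11, another outer arm motor, went from 4.43 to 11.02 CPM across untreated lungs to 14.4 to 30.3 CPM across treated lungs, without overlap (log2 change 1.60 ± 0.27, adjusted p = 0.000431).

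Dnah17 and Dnah8, outer arm chains known best from sperm, were low, and rose in groups that did not overlap. Dnah17 was at 1.87, 1.73, 1.57, 2.11 and 2.19 CPM untreated and at 5.09, 5.31, 5.80, 5.73 and 5.38 CPM treated. The treated libraries lay close together here, with library 1 the lowest of them. The log2 change was 1.53 ± 0.14 (adjusted p = 4.71e-05). Dnah8 went from between 1.76 and 3.57 CPM to between 5.87 and 9.11 CPM (log2 change 1.53 ± 0.21, adjusted p = 0.000171). T and B cell markers moved the same way: Cd3e, a T cell receptor subunit, was at 2.26 to 5.20 plain CPM in untreated and 8.02 to 14.2 in treated lungs, and the part of lymphocytes in the Dnah8 and Dnah17 change was not tested.

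Among the 10 inner dynein arm heavy chains, 9 rose and 1 fell. Dnah6 stood at 12.9, 10.9, 25.8, 25.1 and 20.7 CPM in the untreated lungs. In the treated lungs it reached 34.0, 69.2, 70.4, 69.8 and 44.6 CPM, all above every untreated value (log2 change 1.59 ± 0.28, adjusted p = 0.000591). Dnah3 (log2 change 1.68 ± 0.35), Dnah14 (1.54 ± 0.29), Dnah10 (1.42 ± 0.30) and Dnah2 (1.38 ± 0.25) also rose. The chain that fell, Dnah7b, is one of 3 near-identical Dnah7 genes whose reads the counting could split, and its paralogs Dnah7a and Dnah7c were called higher, so the values of all 3 are uncertain. Dnah2os, a transcript on the strand opposite Dnah2 that shares 36.3% of its exon bases with that gene, did not pass the test (log2 change 0.02 ± 0.28, adjusted p = 0.960).

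Radial spoke genes split, with 5 of 7 tested members called higher and 2 lower. Rsph1, a spoke head protein, was at 7.03, 7.92, 11.97, 13.16 and 9.82 CPM untreated and at 10.3, 22.7, 19.4, 18.1 and 12.45 CPM treated (log2 change 0.73 ± 0.24, adjusted p = 0.0163). The groups overlapped. Rsph10b rose more (log2 change 1.39 ± 0.32, adjusted p = 0.00248), although 15.7% of its exon bases overlap another gene. The spoke stalk genes Rsph3a (log2 change -0.40 ± 0.11) and Rsph3b (-0.36 ± 0.10) fell, in groups that did not overlap, and these near-identical copies may share reads.

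The central apparatus held both the strongest rise and one of the strongest falls. Cfap65, of the central pair, stood at 9.70, 7.59, 17.5, 19.0 and 15.5 CPM untreated and at 25.9, 58.1, 68.5, 64.4 and 39.9 CPM treated. Every treated library was above every untreated one, and the log2 change of 1.89 ± 0.31 (adjusted p = 0.00039) was the highest of the 60. Cfap69 (log2 change 1.48 ± 0.23) and Cfap74 (0.93 ± 0.17) rose as well, as did 6 of the 7 central apparatus genes. The exception, Cfap54, a scaffold of the same apparatus, was at 116.6, 72.9, 89.7, 124.1 and 112.4 CPM untreated and at 61.6, 44.7, 33.7, 22.2 and 77.9 CPM treated (log2 change -1.10 ± 0.29, adjusted p = 0.00595).

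Proteins that space and tether the arms rose in 8 of 9 cases. Ccdc39, one partner of the ruler that sets the axonemal repeat, was called higher (log2 change 1.14 ± 0.26, adjusted p = 0.0025). Its partner Ccdc40 was not called (-0.09 ± 0.16, adjusted p = 0.637). Of the Ccdc39 exon bases, 16.9% overlap another gene on the opposite strand, and the strand setting of the counting is not given. Ccdc40 stood at 22.03 to 33.7 CPM untreated and 19.4 to 33.1 CPM treated, so the ranges nearly coincide. On the pan-epithelial and resident cell scalings below it was called lower (-0.65 and -0.84, adjusted p = 0.0149 and 0.00117). Cfap100 (log2 change 1.56 ± 0.27), which ties inner arms to the axoneme, and the tether genes Cfap44 (1.46 ± 0.27) and Cfap43 (1.39 ± 0.30) rose without overlap between the groups. Of the microtubule inner proteins, 6 of 7 rose, among them Cfap77 (1.05 ± 0.25), Cfap53 (0.91 ± 0.27) and Cfap45 (0.75 ± 0.22). Cfap20 was the one that did not pass.

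The regulator and single markers all rose with TMM scaling, Foxj1 losing its sign on the resident cell scaling below. Foxj1 stood at 28.3, 36.1, 60.5, 55.9 and 43.7 CPM untreated and at 39.2, 80.2, 88.3, 84.9 and 51.9 CPM treated. The groups overlapped, and treated libraries 1 and 5 lay within the untreated range (log2 change 0.62 ± 0.26, adjusted p = 0.0478). This call was lost without untreated library 1, 2 or 5 or treated library 2, 3 or 4 (adjusted p = 0.11, 0.103, 0.0869, 0.101, 0.113 and 0.103). It was also lost with limma-voom (adjusted p = 0.0587) and with no filter on low counts (adjusted p = 0.0777). Tppp3 went from 105.9, 93.3, 195.5, 162.7 and 147.9 CPM to 201.8, 245.6, 321.0, 375.0 and 210.7 CPM, without overlap (log2 change 0.94 ± 0.23, adjusted p = 0.00359). Ccdc153 (1.02 ± 0.29) and Tmem212 (0.93 ± 0.30), markers of ciliated cells, and Dynlrb2 (0.76 ± 0.27) rose in overlapping groups. The Dynlrb2 call was lost without untreated library 1 or 2 or treated library 2, 3 or 4 (adjusted p = 0.0608, 0.0512, 0.0592, 0.0568 and 0.0533).

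**Figure D2:**
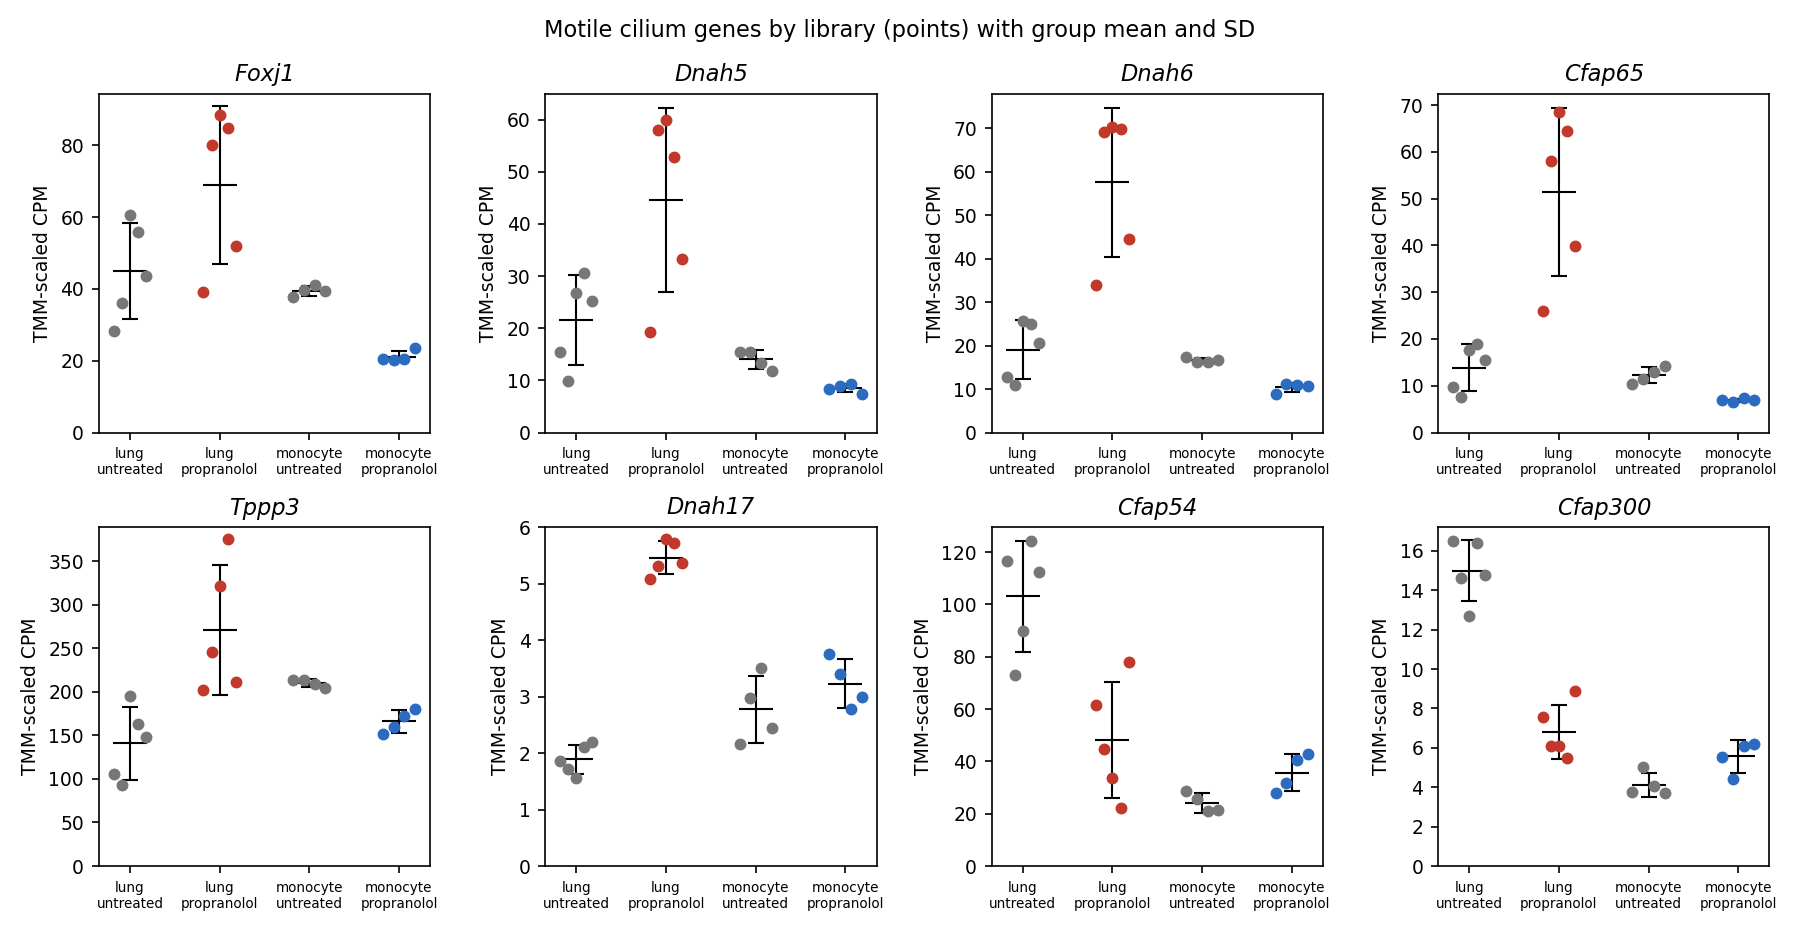
TMM-scaled CPM of 8 motile cilium genes in each lung (n = 5 a group) and monocyte (n = 4 a group) library, with the group mean and SD. On this scaling Foxj1, Dnah5, Dnah6, Cfap65 and Tppp3 have higher means in treated lung (Foxj1 not on resident cell scaling) and lower ones in treated monocyte libraries, Dnah17 is tight in treated lung (5.09 to 5.80), and Cfap54 and Cfap300 are lower in treated lung.

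The 8 genes that fell in treated lung included dynein assembly factors and broadly expressed Cfap genes. Cfap300, which helps to assemble dynein arms in the cytoplasm, was at 16.5, 14.6, 12.7, 16.4 and 14.8 CPM untreated and at 7.55, 6.07, 6.08, 5.49 and 8.86 CPM treated, with no overlap (log2 change -1.14 ± 0.14, adjusted p = 0.000129). Cfap298, another assembly factor, fell from 14.9 to 16.9 CPM to 11.03 to 12.39 CPM (log2 change -0.42 ± 0.08), but 53.6% of its exon bases overlap other genes. Cfap36 fell from 46.3 to 57.5 CPM to 27.2 to 36.5 CPM (log2 change -0.60 ± 0.10, adjusted p = 0.000332).

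Melanoma markers fell with these genes. All 15 genes of the melanocyte list were lower in treated lungs, and their plain CPM summed to 14850 to 22050 per untreated library and to 1042 to 9541 per treated library. Tyrp1, a melanin-synthesis enzyme, was at 1723, 859.6, 451.4, 231.5 and 2034 plain CPM in treated lungs 1 to 5, and Cfap54, Dnah7b and Cfap36 ranked the treated lungs in that same order in plain CPM. None of these genes ranked the untreated lungs as Tyrp1 did, at 5601, 4776, 3430, 4848 and 4353 plain CPM. Cfap300, Cfap298, Cfap97, Rsph3a and Rsph3b, which also fell, did not rank the treated lungs in the Tyrp1 order. The share of all genes that did was not counted. Cfap54 and Dnah7b, like Cfap299 below, were singled out after their values were seen. Treated lungs 1 and 5, with the highest Tyrp1, had the lowest summed level of the members without Tppp3, and treated lung 1 was the lowest of its group for 46 of the 60 members. Untreated lung 2 was the lowest of its group for 39. With the melanocyte level as a covariate in the fit, 1 member was called higher (Dnah17, log2 change 1.45, adjusted p = 0.0105) and 1 lower (Cfap300, -0.62, adjusted p = 0.047), the median over members was 0.22, and 1609 genes in all were called in place of 13189. Cfap54 (0.18) and Dnah7b (0.24) changed sign under it, and melanoma level and treatment cannot be told apart between these groups, whose melanocyte sums do not overlap.

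Several lists of other cells, epithelial or not, rose beside the cilium genes, while the airway secretory list was mixed. Summed over all members but Tppp3, the plain CPM was 593.1, 500.8, 748.4, 831.0 and 724.1 in untreated lungs and 754.7, 1253, 1358, 1241 and 1025 in treated lungs, a ratio of means of 1.66. The pan-epithelial list rose 1.56-fold by the same measure, with 10 of its 16 genes called higher and none lower. Higher calls also covered 12 of 13 alveolar type 1, 11 of 13 alveolar type 2 (1 lower) and 16 of 17 endothelial genes. They covered 7 of 12 smooth muscle and pericyte (1 lower), 10 of 10 T and B cell and 10 of 13 monocyte genes (1 lower). Of all genes tested, 35.5% were called higher and 35.3% lower. The airway secretory sum, which is mostly the club cell product Scgb1a1, rose 2.10-fold, yet 7 of its 15 tested genes were called lower and 4 higher. Its log2 changes ran from -6.02 to 1.14, with a median of 0.06. The part of cell composition in the cilium result was not tested.

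**Figure D3:**
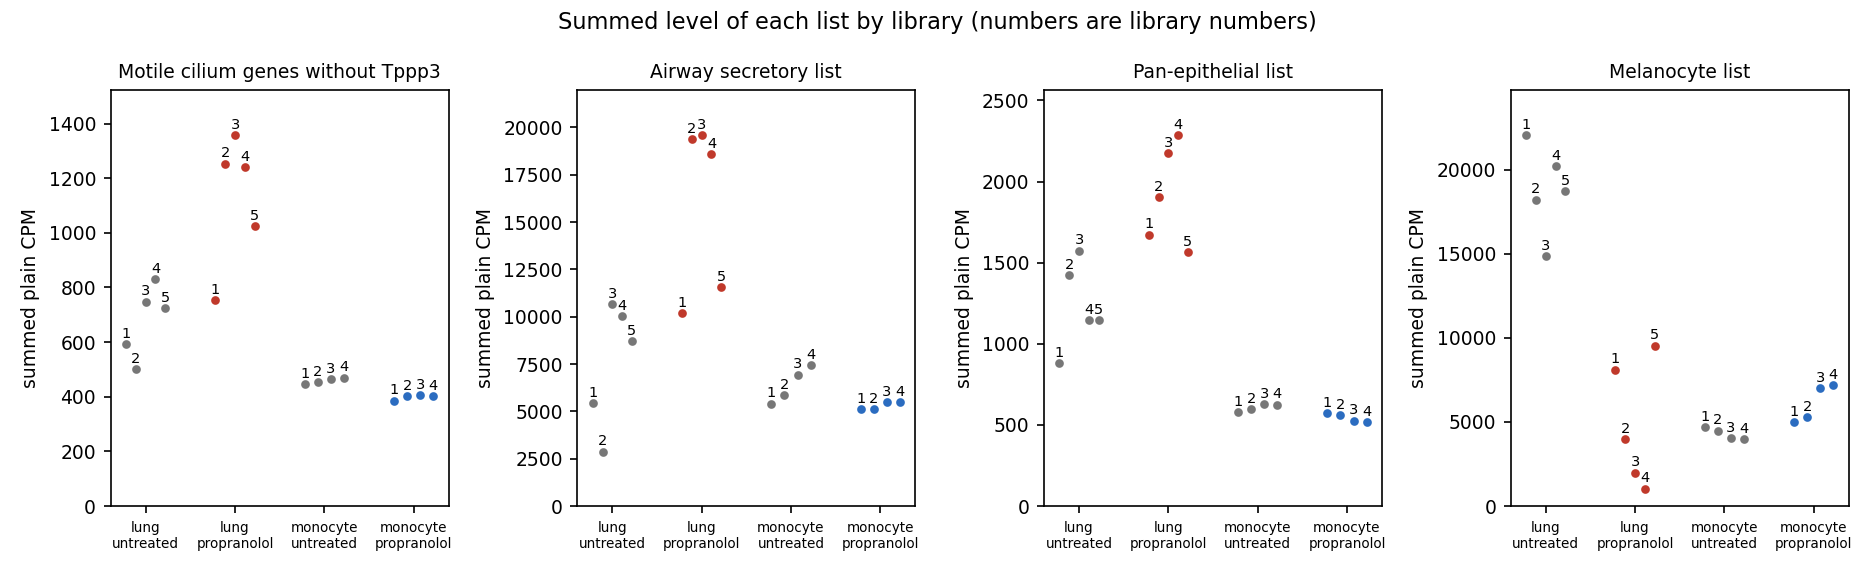
Summed plain CPM of the motile cilium genes without Tppp3 and of the airway secretory, pan-epithelial and melanocyte lists in each lung and monocyte library (numbers are library numbers). The cilium sum spans 500.8 to 831.0 in untreated and 754.7 to 1358 in treated lung, and the melanocyte sum falls from 14850 or more to 9541 or less.

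Scaling the lungs on resident cells instead of on all genes left a smaller rise. With 55 markers of resident lung cells as the reference, the median of all genes moved to -0.70, 19 members were called higher and 10 lower (the same 8, Cfap20 and Ccdc40), and the members' median was 0.27. With 16 pan-epithelial markers as the reference, the median of all genes was -0.49, 21 members were called higher and 10 lower, and the members' median was 0.44. Among all calls, higher calls were 50.1% with TMM, 15.0% with the resident and 21.6% with the pan-epithelial reference. The inner arm (median 0.86) and outer arm (0.99) heavy chains and the central apparatus (0.91) had the highest role medians on the pan-epithelial reference, and the other Cfap genes (0.09), the radial spokes (0.21), the microtubule inner proteins (0.35) and the single markers (0.39) lay nearer to 0. Foxj1 was at 0.08 on that reference and at -0.11 on the resident one, neither called, and 3 other members that had been called higher (Cfap126, Dnah7c and Rsph1) also changed sign on the resident reference.

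**Figure D4:**
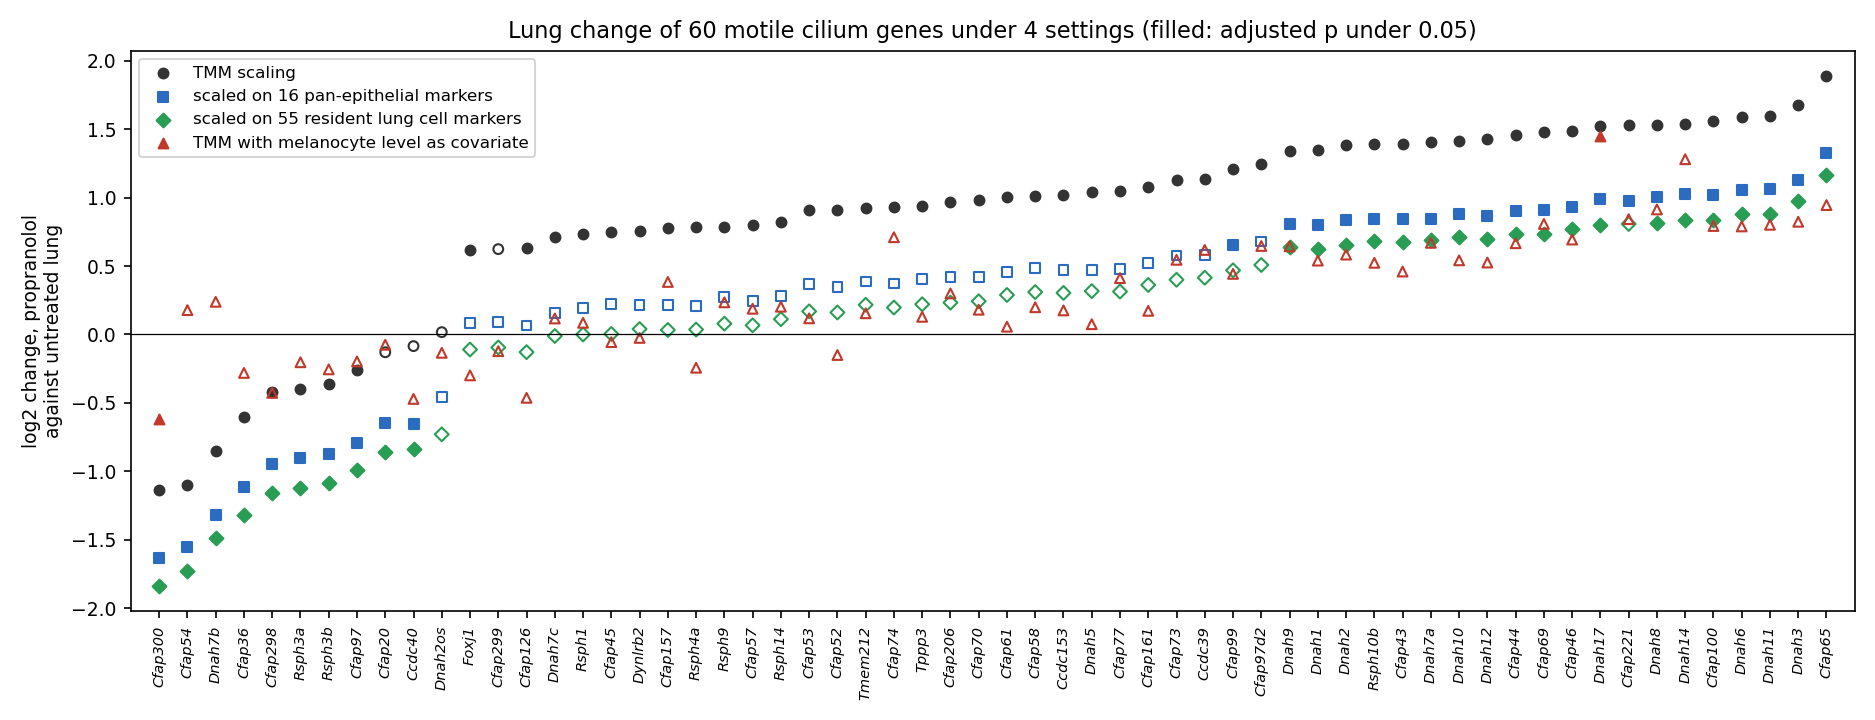
Log2 change with propranolol of the 60 tested genes in lung under TMM, the 2 marker-based scalings and TMM with the melanocyte level as covariate, ordered by the TMM value (filled symbols passed an adjusted p of 0.05). The order of the genes is much the same under the scalings while the level shifts, and under the covariate only Dnah17 and Cfap300 are filled.

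The sorted monocyte libraries carried motile cilium RNA at nearly the level of whole lung. Untreated monocyte libraries had Foxj1 at 37.7, 39.8, 41.2 and 39.4 CPM, and over the 60 tested members the median ratio of untreated monocyte to untreated lung plain CPM was 0.888, with 52 of 60 within 2-fold. These libraries did hold monocyte RNA, since Csf1r was at 405.2 to 506.6 plain CPM against 60.3 to 125.8 in untreated lung and all 13 tested monocyte genes were higher. They also held Scgb1a1 at 3100 to 4608 plain CPM, Cdh5, an endothelial cadherin, at 1635 to 1750, and Krt5, a basal cell keratin, at 8.47 to 9.59 where untreated lung had at most 0.0301. Monocytes do not carry motile cilia, and the source of the cilium RNA in the sort was not tested.

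In the fit of untreated monocyte against untreated lung libraries, 7 of 60 members (11.7%) were higher, beside 31.9% of all genes, and 10 (16.7%) lower, beside 33.6%. Higher were Dnah8 (log2 difference 2.21 ± 0.30), Dnah2os, Dnah2 (1.32 ± 0.18), Dnah14 (1.30 ± 0.28), Tppp3 (0.82 ± 0.19), Dnah17 (0.80 ± 0.18) and Cfap69 (0.58 ± 0.17). Lower were Dnah7b (-1.91 ± 0.14), Cfap54 (-1.85 ± 0.15), Cfap300 (-1.61 ± 0.12), Ccdc40, Cfap36, Cfap97, Cfap298, Rsph3a, Rsph3b and Cfap20. Without untreated lung 2 the lower list grew to 16 genes.

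Treated monocyte libraries had less RNA of most motile cilium genes, the reverse of lung. Of 60 members tested, 34 (56.7%) were called lower, beside 16.1% of all 18236 genes tested, and 3 (5.0%) higher, beside 14.3%. The median log2 change was -0.52 over the members and 0.02 over all genes. The treated libraries lay wholly below the untreated ones for 34 members (56.7%, beside 16.8% of all genes) and wholly above for 1 (1.67%, beside 14.8%).

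Foxj1 gave the smallest p of the members. It fell from 37.7, 39.8, 41.2 and 39.4 CPM to 20.6, 20.1, 20.4 and 23.5 CPM, and the lowest untreated library was well above the highest treated one (log2 change -0.90 ± 0.06, adjusted p = 2.39e-06). All 5 of the regulator and single markers fell, with Tppp3 going from 204.6 to 214.0 CPM to 151.4 to 180.2 CPM (log2 change -0.34 ± 0.05) and Ccdc153 from 15.4 to 18.1 CPM to 10.7 to 12.4 CPM (-0.49 ± 0.08). Dynlrb2 (-0.49 ± 0.16, adjusted p = 0.042) lost its call without any one of 6 of the 8 libraries (untreated 1, 3 and 4 and treated 1, 3 and 4, adjusted p = 0.0653 to 0.104).

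Among the motors, 3 of 5 outer arm and 6 of 10 inner arm heavy chains fell. Dnah6 stood at 17.4, 16.2, 16.3 and 16.7 CPM untreated and at 8.96, 11.1, 10.9 and 10.8 CPM treated (log2 change -0.67 ± 0.08, adjusted p = 0.000104). Dnah10 fell from 9.86 to 12.7 CPM to 5.19 to 6.68 CPM (-0.91 ± 0.11, adjusted p = 0.00011), and Dnah5 from 11.8 to 15.5 CPM to 7.49 to 9.35 CPM (-0.72 ± 0.11, adjusted p = 0.000554). None of these groups overlapped.

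In the other compartments, 4 of 7 central apparatus, 3 of 7 spoke, 3 of 7 inner protein and 7 of 9 ruler and tether genes fell. Cfap65 went from 10.43, 11.39, 12.98 and 14.22 CPM to 6.92, 6.58, 7.37 and 6.86 CPM (log2 change -0.82 ± 0.10, adjusted p = 0.000151). Cfap299, a little studied member, was lowest by log2 change (-1.12 ± 0.29, adjusted p = 0.0129) at 0.917 to 1.75 CPM untreated and 0.380 to 0.755 CPM treated. That call was lost with the paired libraries described below summed (adjusted p = 0.0937), and 19.1% of its exon bases overlap another gene on the same strand. Cfap299 is one of the 4 genes not called in lung in the main fit. It was called higher there with a replicate block and without treated lung 1 (log2 change 0.63 and 0.80, adjusted p = 0.0374 and 0.0382).

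The 3 members called higher in treated monocyte libraries were Cfap54 (0.57 ± 0.14, adjusted p = 0.0121), Dnah7b (0.52 ± 0.13, adjusted p = 0.0141) and Cfap300 (0.43 ± 0.14, adjusted p = 0.0438). Cfap54 went from 28.7, 25.6, 21.0 and 21.3 CPM to 28.0, 31.6, 40.5 and 42.6 CPM, which overlap. The Cfap300 call was lost without any one of untreated libraries 1, 3 and 4 and treated libraries 1, 3 and 4 (adjusted p = 0.0784 to 0.107). All 3 calls were lost when the paired libraries described below were summed (adjusted p = 0.149, 0.181 and 0.229 in the same order). Of the melanocyte genes, 12 of 15 were called higher, and in the 4 treated libraries Cfap54 ranked as Tyrp1 did (1111, 1180, 1557 and 1610 plain CPM), as did Cfap36, Dnah11 and Tppp3, of which Dnah11 and Tppp3 were called lower. Dnah7b and Cfap300 did not follow that order. The share of all genes that followed it was not counted, and the 4 libraries are made up of the pairs described below.

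Most other lung cell lists fell in treated monocyte libraries alongside the cilium genes. The airway basal list did not, with 1 of 6 genes called higher, none lower and a median log2 change of -0.04. Endothelial genes were lower in 16 of 17 cases, airway secretory genes in 10 of 16 and pan-epithelial genes in 8 of 16. None of these 3 lists held a higher call. Alveolar type 1 genes were lower in 10 of 13 cases, alveolar type 2 genes in 8 of 13 (1 higher) and smooth muscle and pericyte genes in 5 of 12. Of all genes tested, 16.1% were called lower and 14.3% higher. T and B cell genes were higher in 5 of 10 cases and monocyte genes in 6 of 13, with none lower. The summed plain CPM of members without Tppp3 was 446.9 to 469.7 in untreated and 386.3 to 404.9 in treated libraries, a ratio of means of 0.869, beside 0.827 for the airway secretory and 0.896 for the pan-epithelial sums. With the 16 pan-epithelial markers as the reference, 20 members were called lower and 10 higher, the median over members was -0.25, and higher calls made up 90.1% of all calls in place of 47.1%. Foxj1 was at -0.63 on that reference.

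Libraries 1 and 2 of each monocyte group resembled each other more than libraries 3 and 4, and likewise for 3 and 4. Between the libraries of such a pair the chi-square per degree of freedom, which is 1 for sampling noise alone, was 3.52 to 5.24, and between other libraries of a group it was 12.2 to 35.6. When each such pair was summed to 1 sample, giving 2 against 2, 14 members were called lower and none higher, and 1377 genes were called in all in place of 5553. Foxj1 was among those still lower (log2 change -0.91).

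**Figure D5:**
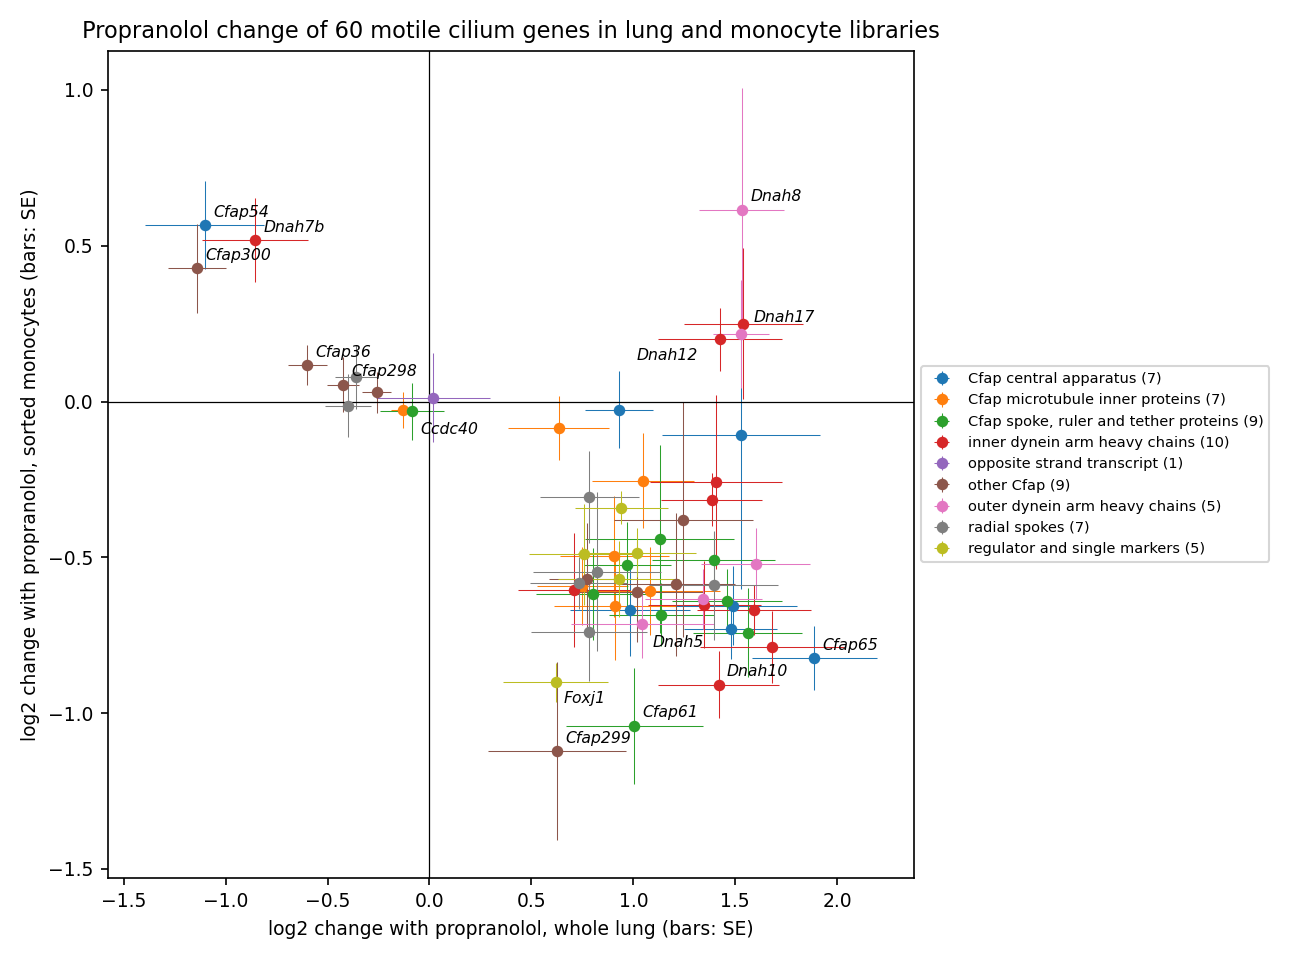
Log2 change with propranolol of the 60 tested genes in whole lung (horizontal) and sorted monocytes (vertical), with SE bars, coloured by role. Most genes lie at lower right (higher in lung, lower in monocytes), Cfap54, Dnah7b and Cfap300 at upper left, and Dnah8 at upper right with a wide monocyte error.

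The propranolol change differed between the materials. Of the 48 genes higher in lung, 33 (68.8%) were lower in monocyte libraries and none higher. Over all 6111 genes higher in lung and tested in both materials, 26.4% were lower and 13.8% higher in monocyte libraries. Of the 8 members lower in lung, 3 (37.5%) were higher in monocyte libraries and none lower, beside 20.1% and 8.46% of all 6457 such genes. Tested as a difference in one fit of all 18 libraries (monocyte change minus lung change), 48 of 60 members (80.0%) were called lower, beside 32.3% of 20328 genes, and 5 (8.33%) higher, beside 25.2%. The median difference was -1.63 over members and -0.17 over all genes. It was -2.84 ± 0.39 for Cfap65, -2.43 ± 0.34 for Cfap100, -2.34 ± 0.29 for Cfap69, -1.89 ± 0.44 for Dnah5, -1.65 ± 0.32 for Foxj1 and 1.45 ± 0.20 for Cfap300. With lungs scaled on resident markers the median difference was -0.79, with 32 members called lower and 10 higher.

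Dnah8 stood out between monocyte libraries of one group. It was at 5.40, 6.999, 13.23 and 13.92 CPM untreated and at 23.1, 20.9, 9.46 and 7.53 CPM treated, and the change did not pass the test (log2 change 0.62 ± 0.39, adjusted p = 0.263). Cd3e was at 7.451, 12.96, 29.38 and 39.04 plain CPM in the untreated and at 83.5, 75.0, 24.6 and 19.8 in the treated libraries, so the same libraries were high and low for both genes, and the part of T cells in Dnah8 was not tested.

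CD4 T cell libraries, which serve as a reference without motile cilia, showed which members are transcribed elsewhere. Scgb1a1 and Tyrp1 had no counts in any of the 8 libraries, nor had Dnah5 and Ccdc153 (3 counts, the most that a count of 0 allows, would be 0.0706 to 0.17 CPM at these depths, for counting error only), while Foxj1 was at 0.0562 to 0.577 plain CPM untreated and 1.15 to 2.38 treated, and Tppp3 at 5.22 to 7.08 and 10.73 to 13.63. Dnah8 was far above its lung level, at 175.2, 167.6, 175.3 and 161.6 plain CPM untreated and 74.0, 37.3, 54.9 and 63.0 treated. Dnah17 likewise ran at 14.6 to 19.9 and 3.57 to 8.66 plain CPM, against 1.52 to 2.07 in untreated lung. In the same libraries the summed plain CPM of the monocyte list went from between 1678 and 1815 to between 4613 and 5148, and that of the airway secretory list from between 99.1 and 115.8 to between 209.9 and 319.9. The part of other cells in these CD4 T cell differences was not tested. Of the 60 tested members, 23 reached 1 plain CPM in untreated CD4 T cells, and 15 of those were higher and 6 lower in treated lung. Of the 37 below that level, 33 were higher and 2 (Cfap300 and Dnah7b) lower in treated lung. In monocyte libraries 8 of the 23 and 26 of the 37 were lower.

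Pathway genes outside the naming rule were counted by list, beside the 35.5% of all genes higher and 35.3% lower in lung. Of other motile axoneme genes, 36 of 47 tested rose in lung and 3 fell (median log2 change 0.90). In monocyte libraries 26 of 48 fell and none rose, beside 16.1% and 14.3% of all genes. By smallest lung p-value, Tubb4b, a widely expressed tubulin (log2 change -0.38 ± 0.06), and Mns1 (-0.97 ± 0.16) fell, and Ccdc114, of the outer arm docking complex, rose (1.40 ± 0.24). Of the assembly factors, 5 of 8 were higher in lung and 3 lower, with Dnaaf3 at 1.13 ± 0.25, Dnaaf5 at -0.43 ± 0.08 and Wdr92 at -0.49 ± 0.09. Intraflagellar transport genes, which serve all cilia, were called higher in 1 and lower in 9 of 23 cases in lung, with a median of -0.11. Ift27 (-0.56 ± 0.09), Wdr35 (-0.68 ± 0.11) and Ift122 (-0.49 ± 0.09) had the smallest p-values among them.

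Of the regulators of multiciliation, 3 of 14 were called higher and 4 lower in lung, both shares under those of all genes. Plk4, which drives centriole duplication in dividing cells too, fell by 1.26 ± 0.22 on the log2 scale (adjusted p = 0.000512), and E2f5 fell (-0.42 ± 0.10, adjusted p = 0.00297), while Rfx2, one of the X-box binding factors, rose (0.64 ± 0.15, adjusted p = 0.00259). Singled out after their values were seen, Trp73, an upstream transcription factor, rose (1.07 ± 0.26, adjusted p = 0.00381), and Mcidas, a coactivator that starts multiciliation, fell (-1.12 ± 0.40, adjusted p = 0.0271). In monocyte libraries 2 of 13 tested regulators were called higher and 2 lower, beside 14.3% and 16.1% of all genes. Their median log2 change was -0.01, with a range of -1.51 to 0.99. Trp73 was among the lower ones (-0.80, adjusted p = 0.0182).

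The dynein intermediate chain genes under older symbols did not move as one. Dnaic1, an outer arm intermediate chain, fell from 90.9, 83.9, 71.1, 93.6 and 90.2 CPM to 45.6, 25.2, 19.2, 12.3 and 51.4 CPM in lung (log2 change -1.48 ± 0.33, adjusted p = 0.00218). As with Cfap54, treated lungs 1 and 5 were highest, and lung 4 lowest. Its outer arm partner Dnaic2 was not called (-0.01 ± 0.17, adjusted p = 0.975), and the inner arm genes Casc1 (1.48 ± 0.32), Wdr63 (0.91 ± 0.24) and Wdr78 (0.88 ± 0.23) rose.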

How the data were processed

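Poly(A) RNA of 26 libraries was measured. Per the submitters' processing notes, the authors used STAR 2.7.9, featureCounts and Subread 2.0.3 with build GRCm39; the strand setting and gene annotation are not given in the sources used here. The authors deposited raw counts per Ensembl gene. Totals were 29650148 to 48306925 counts for lung and monocyte libraries and 17625672 to 42484125 for CD4 T cells. Symbols came from GENCODE M21 and matched 52083 of 55416 genes (94.0%).

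Each comparison was fitted on its own libraries with edgeR 4.0.16 (R 4.3.3): filterByExpr (minimum count 10), TMM, quasi-likelihood test, Benjamini-Hochberg over all genes tested, threshold 0.05. CD4 T cell values are plain CPM without a test. Alternatives were DESeq2 1.42.0, limma 3.58.1, other filters and scalings, a melanocyte covariate, a replicate block and leaving out libraries. The scripts were tested on simulated data. Named genes were those listed singly in the rule, Dnah5, the 3 smallest lung p-values of each role, the 3 smallest monocyte p-values, genes called in opposite directions, the 4 smallest p-values of the difference, and 3 genes per other list. The members and lists were chosen with earlier results of these data known.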

Additional observations from a re-analysis of the deposited data

Results flagged for a closer look

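Within groups of 4 or 5 libraries, single libraries lay far from the rest in 5 of 152 groups checked, and chance alone flags about 1 in 20. They were Cfap36 in treated lung 4 (27.15 CPM, with the others at 34.56 to 36.5), Cfap43 in untreated monocyte library 1 (8.285 CPM, others 9.759 to 9.881), Dnah6 in treated monocyte library 1 (8.961 CPM, others 10.82 to 11.12), Foxj1 in treated monocyte library 4 (23.48 CPM, others 20.13 to 20.55) and the summed plain CPM of members without Tppp3 in treated monocyte library 1 (386.3, others 402.2 to 404.9).

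The propranolol change differed between monocyte and lung libraries by the edgeR interaction test, on the log2 scale, by -2.34 for Cfap69, 1.45 for Cfap300, -2.84 for Cfap65, -2.43 for Cfap100, -1.65 for Foxj1 and -1.89 for Dnah5.

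A search for members that moved in opposite directions in CD4 T cell and lung libraries, in plain CPM, found 8. For these, every treated CD4 T cell library lay below every untreated one, and every treated lung above every untreated lung. The difference was not tested. The share of all genes with this pattern was not counted, so whether 8 members are many cannot be said. Members that moved the same way in both were not searched for. Cfap298, Cfap36 and Cfap300, for example, were lower in every treated than in every untreated library of both materials. The ratio of treated to untreated mean plain CPM in CD4 T cells was 0.55 for Cfap74, 0.332 for Cfap77, 0.292 for Dnah12, 0.246 for Dnah14, 0.329 for Dnah17, 0.288 for Dnah2, 0.337 for Dnah8 and 0.161 for Rsph10b. In lung it was 2.17, 2.35, 3.04, 3.31, 3.28, 2.96, 3.28 and 2.97 for the same genes in that order. Apart from Dnah8 and Dnah17 they were at most 4.936 plain CPM in any CD4 T cell library. In treated CD4 T cell libraries the lowest values were 0.07209 for Dnah2 and Rsph10b and 0.1442 for Cfap77. The monocyte list summed to 1678 to 1815 plain CPM in untreated and 4613 to 5148 in treated CD4 T cell libraries, and its part in these ratios was not tested.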

How the results depend on the processing

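DESeq2, its size factors, limma-voom and no filter changed no direction of the members called, in lung or in monocyte libraries. In lung 46 of the 48 higher calls held with limma-voom (Foxj1 and Cfap126 did not) and 44 with no filter (Foxj1, Cfap126, Dnah7c and Rsph14 did not). The strict filter (mean of at least 5 CPM) turned only the uncalled lung Ccdc40 (0.05). That filter tested fewer genes and left 17 members lower in monocyte libraries, 29 lower in the difference and 4 higher in untreated monocyte against lung libraries. In lung, 19 (resident scaling) and 21 (pan-epithelial) members were called higher, with medians of 0.27 and 0.44, and with the melanocyte covariate 1 was higher and 1 lower (median 0.22, 1609 genes called). Among genes followed singly, sign changes were Foxj1 -0.11, Cfap299 -0.10 and Rsph1 0.00 on the resident scaling, where the called Cfap126 and Dnah7c also turned, and Foxj1 -0.30, Cfap299 -0.12, Cfap45 -0.06, Dynlrb2 -0.03, Cfap54 0.18 and Dnah7b 0.24 with the covariate, where the called Cfap126, Cfap52 and Rsph4a also turned; the cause was not tested. In monocyte libraries, summed pairs gave 0 higher and 14 lower (1377 genes called), and pan-epithelial scaling 10 higher, 20 lower, a median of -0.25 and 10086 genes called. With lungs on the resident scaling the difference had 10 higher and a median of -0.79. The summed pairs and the last 2 scalings were chosen after seeing the data. A replicate block gave 0 higher and 30 lower members in monocyte libraries, with 3544 genes called. Cfap54, Dnah7b and Cfap300 were then at adjusted p = 0.0827, 0.0544 and 0.141. In lung the block gave 48 higher and 8 lower. Of the 48 higher calls of the main fit 47 held, and Cfap299 was newly called (log2 change 0.63, adjusted p = 0.0374). Same-numbered libraries correlated at -0.10 to 0.55 in lung and -0.55 to -0.28 in monocyte libraries, so the numbers were not taken as pairs. Leaving out 1 library gave 41 to 49 higher and 8 to 9 lower in lung, 2 to 3 higher and 30 to 33 lower in monocyte libraries, 5 to 8 higher in the difference, and 10 to 16 lower in untreated monocyte against lung libraries (16 without untreated lung 2). Over these, lung Ccdc40 ran from -0.18 to 0.01, the latter without treated lung 1. Depth limits the members under 1 CPM, such as Cfap97d1 and Rsph6a.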
